A study of Mus musculus with 8 samples.

Results

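The TNF ligand and receptor superfamily was followed in peritoneal B-1a cells that had lost PTIP. Its members were taken by gene symbol: every gene whose symbol begins with Tnfrsf or Tnfsf, and Tnf, Lta, Ltb, Ltbr, Cd40, Cd40lg, Cd27, Cd70, Fas, Fasl, Ngfr, Eda and Eda2r. This gave 42 of the 22180 genes tested, 26 receptors and 16 ligands, each measured by 1 probe set. A further 2 probe sets carry a family symbol together with other symbols and were not named, so that the ligands Tnfsf12 and Tnfsf13 (APRIL) are not analysed here.

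Mutant mice (KO) had 1 Cre allele that acts in B lineage cells and PTIPflox/flox, and control mice (WT) had the same Cre allele with PTIP+/+. Cre is thus present in both genotypes, and the B-1a cells of both were sorted from peritoneal lavage at 5 weeks of age. RNA of 29 KO and 22 WT mice was pooled into 4 biological replicate samples per genotype, and each pool was hybridised to 1 Affymetrix array. Values are log2 RMA expression values, which are relative within an array and flatten near background. Paxip1, the gene for PTIP, averaged 4.38 ± 0.54 in KO pools and 7.05 ± 0.13 in WT pools (SD, n = 4 each), which checks the labels. The B cell genes Cd79a and Ms4a1 (CD20) differed by -0.04 and 0.02. Cd5, which marks B-1a cells but is also carried by T cells, differed by 0.04. The mean of 10 B cell markers lay between 8.75 and 8.86 in KO pools and between 9.01 and 9.05 in WT pools. Of these 10 genes 4 had an unadjusted p under 0.05, all lower in KO: Zbtb32, which was called (-1.11), and Spn (CD43, -0.52), Blk (-0.24) and Plscr1 (-0.23), which were not (limma, adjusted p = 0.121, 0.218 and 0.312). Transcripts of other cells were also present: averaged over 14 T cell markers, the level was 7.23, 6.99, 5.27 and 5.82 in the KO pools, against 5.54, 5.66, 4.92 and 4.68 in the WT pools, in order of pool number. The average includes Cd2, which was bright in all pools (10.61 to 11.11) and differed by -0.17, where the other 13 differences were positive. Cd2 raises this T cell level in every pool. The members were refitted with adjustment for this T cell level and without KO pools 1 and 2, as given below. That level itself went with genotype (mean 6.33 in KO pools and 5.2 in WT pools). The adjusted fit therefore cannot separate its part in the differences from that of genotype. The part of other cell types was not tested. In sorted bulk cells, fewer cells of a type and less RNA per cell cannot be told apart.

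TNF family ligands are mostly trimers held in the membrane, and their receptors carry cysteine-rich repeats outside the cell. Inside the cell the receptors bind TRAF adaptors, which lead to NF-kB and MAP kinases, or, where they hold a death domain, FADD and caspase-8. In B cells the family sets survival through BAFF and its receptors, carries T cell help through CD40, and lets B cells present costimulatory ligands such as OX40L to T cells.

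Of the 42 members, 4 passed the test (limma, Benjamini-Hochberg over all 22180 genes, adjusted p under 0.05, described as called): 1 was higher and 3 were lower in KO. That is 9.52% of the members, where 3.59% of all tested genes were called, 1.49% upward and 2.10% downward. The receptor Tnfrsf8 (CD30) and the ligand Tnfsf4 (OX40L) differed by -2.20 and -1.77 on the log2 scale, the ligand Tnfsf18 (GITRL) rose by 0.92 and the decoy receptor Tnfrsf23 fell by 0.51. At an unadjusted p under 0.05 stood 18 members, 10 of them higher and 8 lower, or 42.9%, against 15.3% of all tested genes. The KO and WT pools did not overlap for 10 members, or 23.8%, against 10.5% of all tested genes. The median difference was 0.06 over the members and 0.02 over all genes. The members were chosen with earlier results of these data known, so nothing is read about the family as a whole from these shares.

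**Figure D1:**
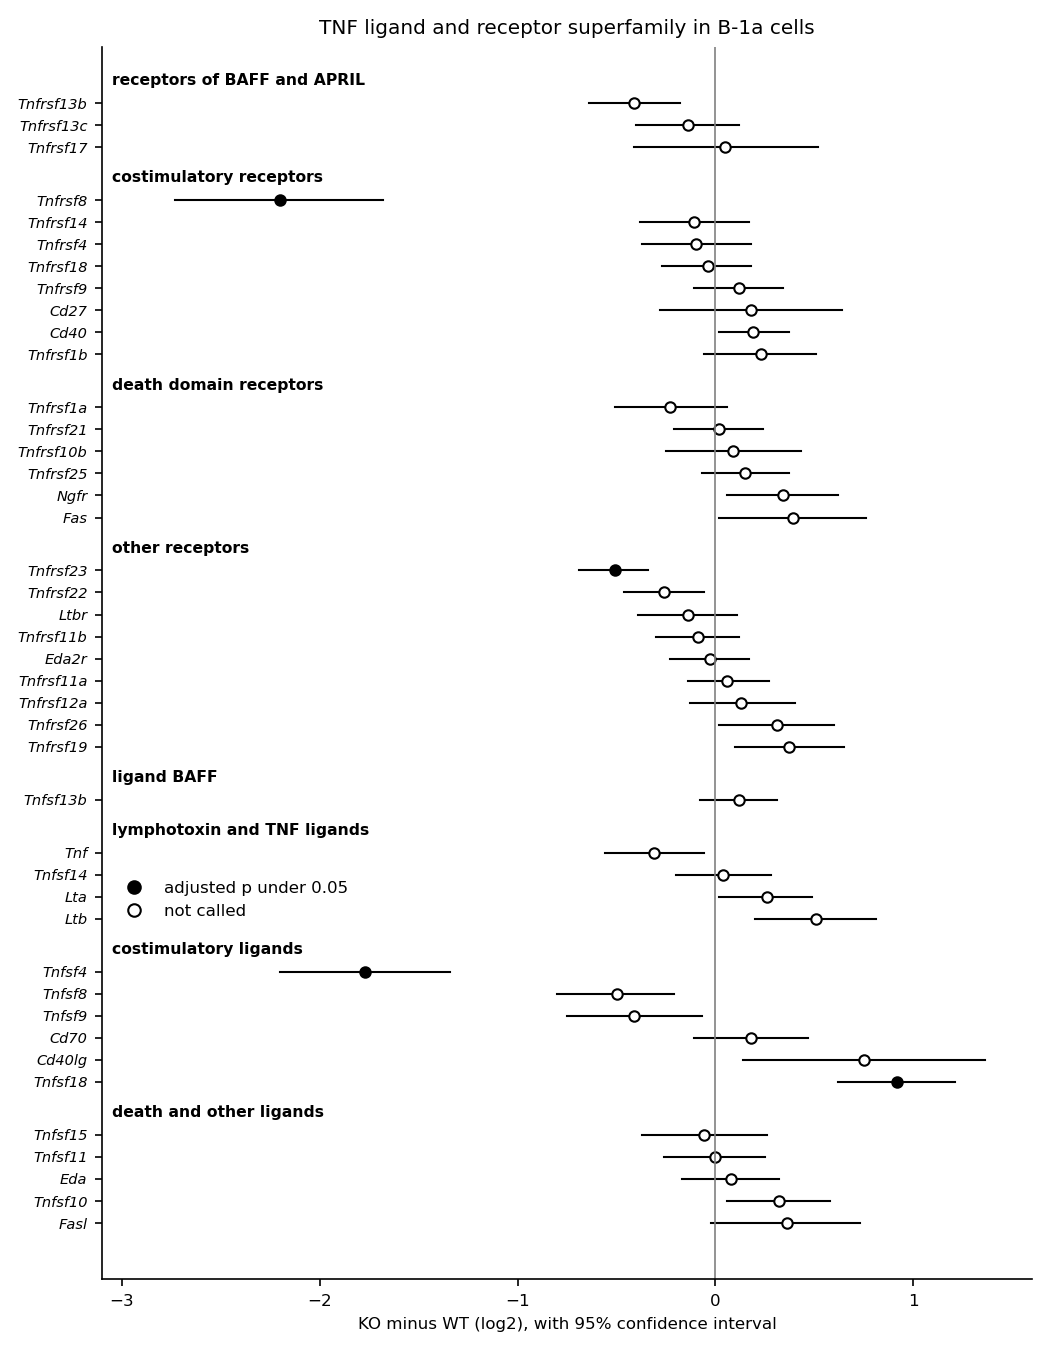
Difference between KO and WT (log2, x axis) of all 42 members, grouped by role, with the 95% confidence interval of the limma fit (n = 4 pools each). Filled points are the 4 called members, Tnfrsf8, Tnfrsf23, Tnfsf4 and Tnfsf18, and most intervals of the other members include 0.

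Promoter sequences were taken from the RefSeq table of build GRCm38.p6, which held 33 of the 42 members. They are shown for the called members it held. The deleted protein works in complexes that methylate histone H3K4, a mark found at enhancers as well as at promoters. Enhancers were not examined. Each run is the 250 bases before the gene's annotated start, 5′ to 3′ on the gene's strand, and capitals mark matches on either strand to GGGNNNNNCC (a loose form of the NF-kB site), TGANTCA (AP-1), GGGCGG (the GC box) and TATAAA (the TATA box).
Tnfrsf8, chr4:145315165-145315414 (-): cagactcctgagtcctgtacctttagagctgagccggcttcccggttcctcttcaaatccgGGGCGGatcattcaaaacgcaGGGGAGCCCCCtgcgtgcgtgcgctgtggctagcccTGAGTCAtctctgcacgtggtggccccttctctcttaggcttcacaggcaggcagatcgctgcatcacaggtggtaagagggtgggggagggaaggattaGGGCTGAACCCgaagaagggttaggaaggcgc
Tnfrsf23, chr7:143685876-143686125 (-): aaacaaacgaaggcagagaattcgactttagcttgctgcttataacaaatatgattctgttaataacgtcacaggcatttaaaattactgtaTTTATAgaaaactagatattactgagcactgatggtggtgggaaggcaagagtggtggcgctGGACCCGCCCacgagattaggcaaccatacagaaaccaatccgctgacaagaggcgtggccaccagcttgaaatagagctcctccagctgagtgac
Tnfsf18, chr1:161494407-161494656 (+): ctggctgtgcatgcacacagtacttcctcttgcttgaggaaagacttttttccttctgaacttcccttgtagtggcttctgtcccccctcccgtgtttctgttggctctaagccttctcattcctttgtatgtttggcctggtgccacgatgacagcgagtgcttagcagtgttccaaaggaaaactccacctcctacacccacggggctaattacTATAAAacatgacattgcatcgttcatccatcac
In the Tnfrsf8 window the AP-1 letters lie 132 to 126 bases before the start, and the NF-kB letters form 2 pairs of overlapping matches that begin 168 and 32 bases before it. The Tnfrsf23 window holds a TATA match and a GC box match that overlaps its NF-kB match, and the Tnfsf18 window holds a TATA match that begins 34 bases before the start. Over 32851 promoter windows of the same length, 45.8% held GGGNNNNNCC, 32.7% GGGCGG, 12.4% TATAAA and 6.75% TGANTCA. In the 37 windows of family members these shares were 64.9%, 45.9%, 18.9% and 13.5%, a difference that was not tested. A match describes the sequence and is not a site. CpG dinucleotides numbered 12 in the Tnfrsf8 window, 8 in that of Tnfrsf23 and 5 in that of Tnfsf18, against a median of 6 over all windows.

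CD30, the product of Tnfrsf8, is a receptor of activated lymphocytes and the defining surface marker of Hodgkin lymphoma cells. Tnfrsf8 stood at 4.05, 4.76, 3.95 and 5.17 in KO pools 1 to 4, against 6.90, 6.58, 6.47 and 6.80 in WT pools 1 to 4. Every KO pool lay below every WT pool, and the KO pools spread more widely. The means were 4.48 ± 0.58 in KO and 6.69 ± 0.20 in WT (SD, n = 4 each), a 4.61-fold lower level in KO (difference -2.20, SE 0.24, limma, adjusted p = 0.000493). Its ligand Tnfsf8 (CD30L) lay between 4.98 and 5.53 in KO pools and between 5.61 and 5.96 in WT pools. All 4 KO pools were below all 4 WT pools for the ligand too, but its difference of -0.50 (SE 0.13) was not called (limma, adjusted p = 0.0704).

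OX40L, the product of Tnfsf4, is presented by activated antigen-presenting cells, B cells included, and costimulates T cells through OX40. Its transcript had values of 3.72, 3.61, 3.76 and 2.87 in KO pools, against 4.91, 5.24, 5.39 and 5.51 in WT pools. The groups lay more than 1 log2 unit apart, and KO pool 4 was the lowest of all. Tnfsf4 averaged 3.49 ± 0.42 in KO and 5.26 ± 0.26 in WT (SD, n = 4 each), 3.41-fold lower in KO (difference -1.77, SE 0.19, limma, adjusted p = 0.000563). The KO level is below the median of all probe sets on the arrays (3.68 to 3.74), where RMA values flatten and folds may be understated. OX40 itself, Tnfrsf4, differed by -0.10 (95% interval -0.37 to 0.18).

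GITRL, the product of Tnfsf18, is the ligand of GITR, a receptor of regulatory and activated T cells. Tnfsf18 stood at 5.81, 5.78, 5.50 and 5.31 in KO pools 1 to 4, against 4.85, 4.68, 4.41 and 4.80 in WT pools 1 to 4. Each KO pool was above each WT pool, and KO pools 1 and 2, which had the highest T cell marker means, were the highest. It rose 1.89-fold, to 5.60 ± 0.24 in KO against 4.68 ± 0.19 in WT (SD, n = 4 each; difference 0.92, SE 0.13, limma, adjusted p = 0.00334). Once the fit was adjusted for the T cell marker mean, the difference was 0.70 and was not called (adjusted p = 0.0601), and without KO pools 1 and 2 it was 0.72 (adjusted p = 0.0479). GITR, Tnfrsf18, differed by -0.04 (95% interval -0.27 to 0.18).

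The fourth called member, Tnfrsf23, encodes a mouse decoy receptor that binds the death ligand TRAIL without passing on a death signal. In KO pools it lay at 3.32, 3.28, 3.26 and 3.23, against 3.90, 3.77, 3.67 and 3.80 in WT pools. The groups were narrow and separate. Its difference was -0.51 (SE 0.08, limma, adjusted p = 0.00508), or 1.43-fold lower in KO, with means of 3.27 ± 0.04 in KO and 3.78 ± 0.10 in WT (SD, n = 4 each). The KO mean lies below the array medians and the WT mean just above them, and both lie below the median level of the tested genes (3.81). Near background folds may be understated, and whether the transcript is present at such levels was not tested. Its probes may also pick up the related Tnfrsf22, as described below.

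**Figure D2:**
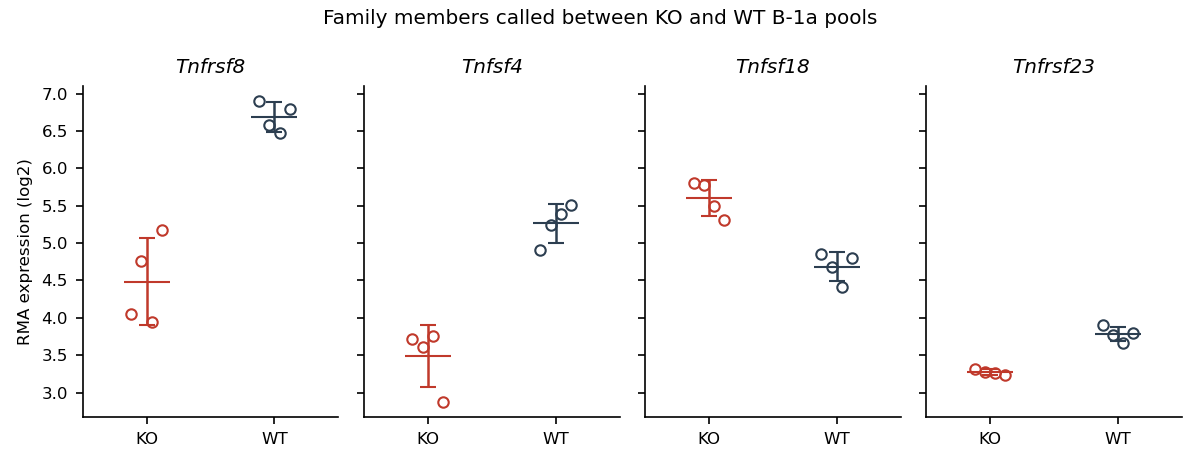
Log2 RMA expression (y axis) of the 4 called members in each KO and WT pool (open points), with mean and SD (bars, n = 4 each). KO and WT pools do not overlap in any panel, with Tnfsf18 the one member higher in KO.

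Receptors of BAFF and APRIL govern the survival and the T cell-independent responses of B cells. Tnfrsf13b (TACI) lay at 5.75, 5.81, 5.81 and 6.12 in KO pools, against 6.24, 6.21, 6.48 and 6.22 in WT pools. Every KO pool was below every WT pool, but the difference of -0.41 (SE 0.10) was just short of the threshold (limma, adjusted p = 0.0584). Without KO pool 4 it was -0.50 and passed (limma, adjusted p = 0.0265), and without any other single pool the adjusted p was 0.0965 to 0.158. It was -0.32 both adjusted for the T cell marker mean (0.362) and without KO pools 1 and 2 (0.333). Tnfrsf13c (BAFF-R), the main survival receptor of mature B cells, had values of 8.40, 8.69, 8.90 and 8.88 in KO pools, against 8.95, 8.87, 8.91 and 8.69 in WT pools. These overlapped, and the 95% interval of the difference was -0.40 to 0.12. Tnfrsf17 (BCMA), a receptor of plasma cells, was dim in all pools, at 2.90 to 4.00, and differed by 0.05 (95% interval -0.41 to 0.52). BAFF itself, Tnfsf13b, is made mainly by myeloid and stromal cells and was dim in both groups, at 3.0 to 3.33 in KO pools and 2.95 to 3.05 in WT pools.

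Of the 8 costimulatory receptors, Tnfrsf8 was called and 7 were not. CD40, through which T cells help B cells, stood at 6.87, 6.91, 6.86 and 6.93 in KO pools, against 6.73, 6.81, 6.58 and 6.69 in WT pools. The KO values of Cd40 were all above the WT values, by a small margin: the difference was 0.19 (SE 0.08, limma, adjusted p = 0.277). Tnfrsf1b, the second TNF receptor, lay between 6.74 and 6.83 in KO pools and between 6.14 and 6.79 in WT pools, which overlapped (difference 0.23, limma, adjusted p = 0.455, and 0.10 without WT pool 3). Cd27, a receptor of T cells and memory B cells, stood at 6.30, 5.85, 5.21 and 5.34 in KO pools, against 5.59, 5.68, 5.48 and 5.24 in WT pools. Its 2 highest values were in KO pools 1 and 2. Tnfrsf14 (HVEM), Tnfrsf9 (4-1BB), Tnfrsf4 and Tnfrsf18 differed by -0.11 to 0.12, and none was called.

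None of the 6 death domain receptors was called by limma, and 2 of them, Fas and Ngfr, had an unadjusted p under 0.05. Fas, the receptor that starts apoptosis in activated lymphocytes, lay at 3.78, 3.15, 2.98 and 2.92 in KO pools, against 2.96, 2.84, 2.64 and 2.82 in WT pools. KO pool 1 stood above the rest, and KO pool 4 was within the WT range (difference 0.39, SE 0.17, limma, adjusted p = 0.297). Without KO pool 1 the Fas difference was 0.20. Tnfrsf1a, the TNF receptor with a death domain, differed by -0.23 (95% interval -0.51 to 0.06), by -0.14 without KO pool 4 and by -0.42 without KO pools 1 and 2. The TRAIL receptor Tnfrsf10b, Tnfrsf21 (DR6) and Tnfrsf25 (DR3) differed by 0.09, 0.02 and 0.15. Ngfr, the neurotrophin receptor p75, differed by 0.34 (SE 0.13, limma, adjusted p = 0.226) and was dim in both groups, at 3.26 to 3.71 in KO pools and 3.01 to 3.48 in WT pools.

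Among the other 9 receptors Tnfrsf23 was called. Tnfrsf22, the second mouse decoy receptor for TRAIL, lay between 5.87 and 5.99 in KO pools and between 6.02 and 6.35 in WT pools. These ranges were separate, and the difference was -0.26 (SE 0.09, limma, adjusted p = 0.176). The genes of this cluster are close in sequence, and their probes may not tell them fully apart. Tnfrsf26, the third receptor of the cluster, differed by 0.31 (SE 0.13, limma, adjusted p = 0.292), by 0.20 without WT pool 2 and by 0.16 without KO pools 1 and 2. For Tnfrsf19 (TROY), all KO pools, at 5.34 to 5.90, were above all WT pools, at 5.03 to 5.32 (difference 0.37, SE 0.12, limma, adjusted p = 0.160). Ltbr, the lymphotoxin beta receptor, and Tnfrsf12a, the receptor of TWEAK, differed by -0.14 and 0.13. Tnfrsf11a (RANK), its decoy Tnfrsf11b (osteoprotegerin) and the ectodysplasin receptor Eda2r differed by 0.06, -0.09 and -0.03.

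Lymphotoxins and TNF are cytokines through which B cells shape lymphoid tissue. Ltb, the membrane anchor of the lymphotoxin heterotrimer, stood at 10.11, 10.24, 10.36 and 10.55 in KO pools, against 9.87, 9.43, 10.03 and 9.90 in WT pools. All KO values were above all WT values, with a difference of 0.51 (SE 0.14, limma, adjusted p = 0.0778). It was 0.73 once adjusted for the T cell marker mean (adjusted p = 0.0554). Lta, which forms the same heterotrimer, averaged 4.98 ± 0.16 in KO and 4.72 ± 0.15 in WT (SD, n = 4 each; difference 0.26, limma, adjusted p = 0.275). Tnf had values of 5.58, 5.81, 5.97 and 5.77 in KO pools, against 6.28, 6.20, 5.98 and 5.90 in WT pools. The Tnf ranges overlapped slightly, and the difference was -0.31 (SE 0.11, limma, adjusted p = 0.205). Tnfsf14 (LIGHT) differed by 0.04.

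The 6 costimulatory ligands held 2 of the 4 calls, in opposite directions. Their median absolute difference was 0.63, against 0.19 over the 42 members and 0.10 over all tested genes. The group is small and was sorted by hand with earlier results known, so nothing is read about it from these values. Besides Tnfsf4, Tnfsf18 and Tnfsf8, Tnfsf9 (4-1BBL) lay between 3.77 and 4.08 in KO pools and between 4.05 and 4.85 in WT pools (difference -0.41, SE 0.15, limma, adjusted p = 0.220). Its difference was -0.17 adjusted for the T cell marker mean and -0.26 without WT pool 3. Cd70, the ligand of CD27, was dim in all pools, at 2.14 to 2.76. Cd40lg (CD40L), which helper T cells display, stood at 4.18, 4.10, 2.83 and 2.99 in KO pools, against 2.86, 2.85, 2.76 and 2.63 in WT pools. KO pools 1 and 2 were high and KO pools 3 and 4 lay near the WT pools (difference 0.75, SE 0.28, limma, adjusted p = 0.211). Of the 5 remaining ligands limma called none, and 1, Tnfsf10, had an unadjusted p under 0.05. Fasl, the death ligand of cytotoxic cells, lay at 3.79, 3.83, 3.26 and 3.0 in KO pools, against 2.95, 3.21, 3.15 and 3.15 in WT pools, and Tnfsf10 (TRAIL) differed by 0.32 (SE 0.12, limma, adjusted p = 0.212). Tnfsf11 (RANKL), Tnfsf15 (TL1A) and Eda differed by 0.00, -0.06 and 0.08.

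Of the 24 members with a positive difference, 7 lost at least 0.2 of it when the fit was adjusted for the T cell marker mean; the limit was chosen after the values were seen. In that fit Cd40lg differed by 0.03, Fas by 0.06, Fasl by 0.04, Tnfsf10 by 0.09, Tnfsf18 by 0.70, Tnfrsf17 by -0.21 and Cd27 by -0.36. Other members moved by at least 0.2 as well: Tnfsf9 differed by -0.17 and Tnfrsf14 by 0.17, where they had -0.41 and -0.11 without the term, and Tnfrsf4 differed by -0.34 in place of -0.10. Ltb (0.73) and Tnfsf8 (-0.73, limma, adjusted p = 0.0504) lay further from 0 than without it. For Cd40lg, Fas, Fasl, Tnfsf10 and Cd27 the difference without KO pools 1 and 2 was 0.13, 0.13, 0.02, 0.18 and -0.22, and none of them was called in either fit. Of the 14 T cell markers 0 were called by limma, although 13 had positive differences and 9 an unadjusted p under 0.05. All 11 NK cell markers had positive differences, 7 with an unadjusted p under 0.05, and limma called 2 upward. The mean of the NK cell markers ran from 4.37 to 5.59 in KO pools and from 3.62 to 4.48 in WT pools. The 3 calls downward were as large with the covariate: Tnfrsf8 differed by -2.22, Tnfsf4 by -1.78 and Tnfrsf23 by -0.56 (limma, adjusted p = 0.00885, 0.0103 and 0.0387). The mean of 13 macrophage markers ran from 4.61 to 4.93 in KO pools and from 4.53 to 5.28 in WT pools. Of these genes 3 had an unadjusted p under 0.05: Cd68 fell by 0.56 and was called, and Adgre1 and Marco differed by -0.76 and 0.33 without a call (limma, adjusted p = 0.122 and 0.324).

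**Figure D3:**
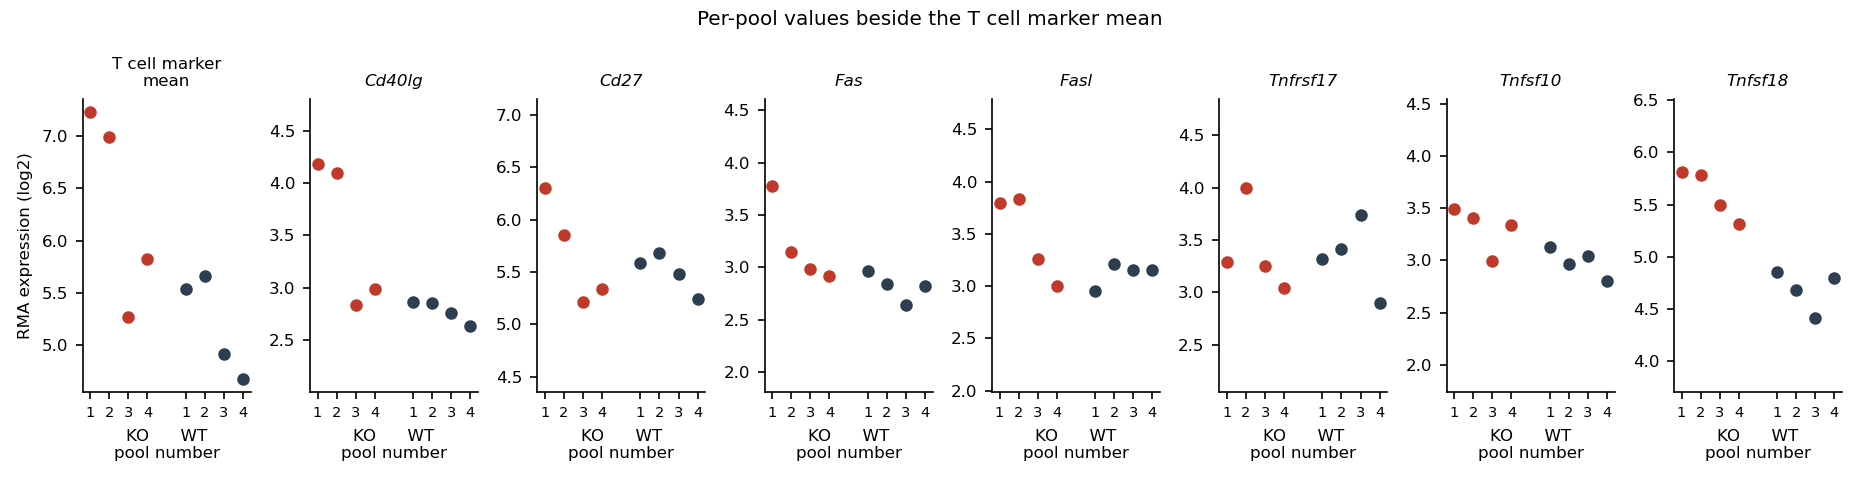
Log2 RMA expression (y axis, each panel spanning the same number of log2 units) per pool of the T cell marker mean and of the 7 members whose positive difference shrank by at least 0.2 with that mean as a covariate. KO pools 1 and 2 are highest for the marker mean, Cd40lg, Cd27, Fas, Fasl, Tnfsf10 and Tnfsf18. The members were chosen by this shrinkage, so their likeness to the marker mean is partly fixed by the choice.

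Many family genes lie side by side in the genome. In the order of protein-coding genes of assembly GRCm38.p6, 21 members form 13 neighbouring pairs with at most 1 gene between them, 11 of them directly adjacent. In 7 of the 13 pairs the differences had opposite signs. Over the family 24 of 42 differences were positive, so mixed signs are frequent among any pairs, and nothing is read from this count. On chromosome 1 Tnfsf4 (-1.77) and Tnfsf18 (0.92) are adjacent and were called in opposite directions, and the next gene, Fasl, differed by 0.36 without a call. Tnfrsf8 (-2.20) lies next to Tnfrsf1b (0.23) on chromosome 4. On chromosome 7 the order is Tnfrsf26 (0.31), Tnfrsf22 (-0.26) and Tnfrsf23 (-0.51), with a call for the last. On chromosome 17 Ltb (0.51), Tnf (-0.31) and Lta (0.26) alternate in sign, none of them called. The receptors Tnfrsf4 and Tnfrsf18, whose ligands are the called pair of chromosome 1, are themselves adjacent on chromosome 4 and differed by -0.10 and -0.04.

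**Figure D4:**
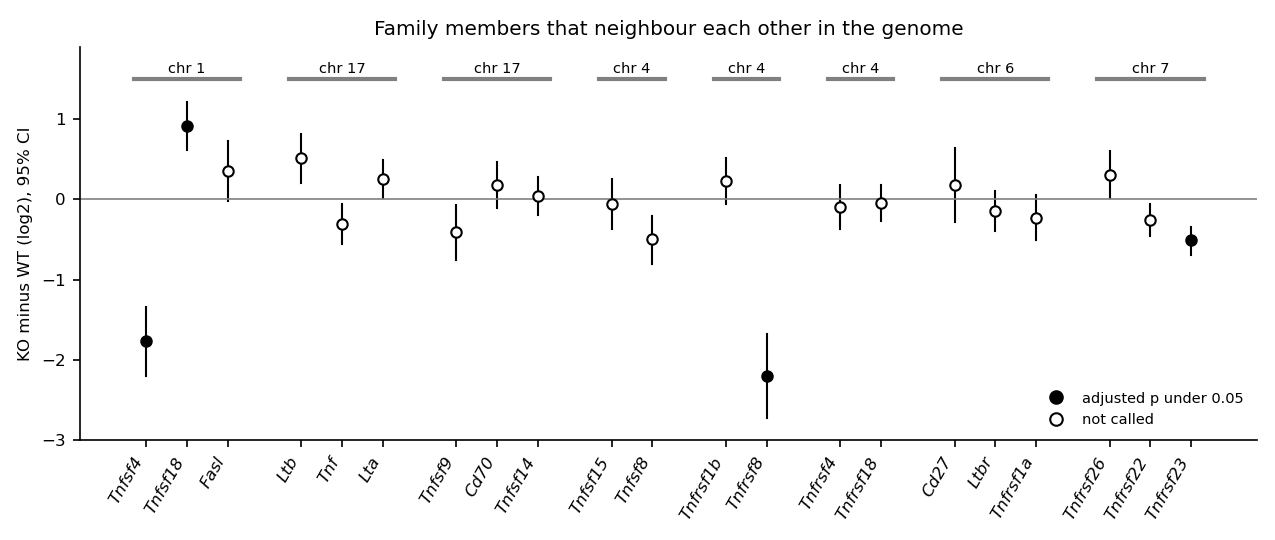
Difference between KO and WT (log2, y axis) with 95% confidence interval for the 21 members that neighbour another member, in chromosomal order. Grey bars join neighbours, and filled points are called. Tnfsf4 and Tnfsf18, side by side on chromosome 1, lie on opposite sides of 0.

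Downstream of the receptors, 41 measured genes of TNF receptor signalling (adaptors, kinases, ubiquitin enzymes and NF-kB subunits) held 2 rises and 1 fall, or 7.32% called, with a median difference of 0.06, where all tested genes had 3.59% and 0.02. In the fit with the T cell marker mean 1 gene of the list was called, where calls over all genes numbered 295, and without KO pools 1 and 2 none was, where they numbered 320, against 797 with all arrays and no such term. Nothing is read about the list from these counts. Nfkb2, the p100 subunit of the noncanonical pathway that BAFF-R, CD40 and the lymphotoxin beta receptor use, averaged 7.47 ± 0.14 in KO and 6.76 ± 0.28 in WT (SD, n = 4 each; difference 0.72, SE 0.14, limma, adjusted p = 0.0150). Its call was lost without WT pool 3 (adjusted p = 0.0520), without KO pools 1 and 2 (0.0559), without variance moderation (0.112) and over all probe sets (0.0542). Nfkb2 was the 1 gene of the list still called with the T cell marker mean (0.92, limma, adjusted p = 0.0215). Ikbkb, the kinase of the canonical pathway, fell by 0.51 (SE 0.09, limma, adjusted p = 0.0106). The Ikbkb call was lost in the fit with that marker mean as a term (-0.44, adjusted p = 0.137) and without KO pools 1 and 2 (-0.44, adjusted p = 0.124). Tank, a TRAF-binding regulator, rose by 0.33 (SE 0.07, limma, adjusted p = 0.0351), which held without WT pool 1 and was lost without any other single pool (up to 0.0969). Adjusting for the same marker mean also ended the Tank call (0.162), which was likewise lost without KO pools 1 and 2 (0.152), with the replicate block (0.0936) and over all probe sets (0.0650). The adaptor Traf5, the NF-kB inhibitors Tnip1 and Tnfaip3 (A20) and the ubiquitin ligase Birc2 differed by 0.36, 0.29, 0.34 and -0.23 and were not called (limma, adjusted p = 0.0605, 0.0706, 0.212 and 0.193).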

How the data were processed

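RNA of 8 pools of sorted B-1a cells was measured on Affymetrix arrays. The authors deposited 41345 probe sets as log2 values, made with RMA and R 3.2.2 per the submitters' processing notes; RMA sets all arrays to 1 shared distribution. The sources used here do not give the package, summarisation level or build. Array medians lay between 3.68 and 3.74. Precision is limited by the number of arrays, which have no read depth.

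Names came from the platform annotation: of 25335 listed probe sets, 23521 had 1 symbol. Those with several (1814) and those of the table it does not list (16010) stayed unnamed. The gene identifiers of 23328 matched a RefSeq table of GRCm38.p6. Each gene was represented by its probe set of highest overall mean. KO and WT were compared with limma 3.58.1 in R 4.3.3 (lmFit, eBayes, two-sided), and the fit was tested on simulated data.

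The members and lists were chosen with earlier results of these data known. Described in full were called members, the BAFF and APRIL genes, Cd40, Fas, Tnfrsf1a, Tnfrsf1b, Cd27, Ltb, Lta, Tnf and the 6 uncalled members of largest difference; of the signalling list, called genes and the 4 uncalled of smallest p. Receptor roles were sorted into groups by hand, and Eda2r and Tnfrsf11b were moved out of the death domain group after values were seen. Written symbols that did not match a tested gene (4 of 45 in the signalling list) were not analysed here. Mast cell and granulocyte markers (3.04 to 3.21 in KO pools, 2.87 to 3.53 in WT pools) and dendritic cell markers (3.75 to 3.83 in KO, 3.59 to 3.79 in WT) held no call by limma (1 and 3 had an unadjusted p under 0.05). Alternatives changed the scaling, which probe set stood for a gene, which genes were tested, the prior on the variance, the array weights, the cutoff, a replicate block, a T cell marker covariate and the pools used.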

Additional observations from a re-analysis of the deposited data

Results flagged for a closer look

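A pool far from the other 3 of its group, by Dixon's test, was found in 4 of 84 member and genotype groups, where chance gives about 1 in 20. For Tnfsf4 it was KO pool 4, at 2.87 with the nearest KO pool at 3.61 (ratio of gap to range 0.832). For Tnfrsf13b it was KO pool 4, at 6.12 with the nearest at 5.81 (0.831), and also WT pool 3, at 6.48 with the nearest at 6.24 (0.873). For Ngfr it was KO pool 2, at 3.26 with the nearest at 3.64 (0.833).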

How the results depend on the processing

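Over 22 alternatives Tnfrsf8 and Tnfsf4 kept their call and sign (differences of -2.43 to -2.03 and of -1.95 to -1.57, limma, adjusted p up to 0.0372 for each), as did Tnfrsf23 in the 21 that tested it (-0.56 to -0.47, up to 0.0479). Tnfsf18 (0.70 to 1.01) lost its call with the T cell covariate (0.0601) and without variance moderation (0.0585). Some of these alternatives could not have lost a member's call by design. Each member has 1 probe set, so changing which probe set stood for a gene left the member values as they were. The cutoff of 0.1 is looser than the main one. Between 3 and 7 members were called. At an adjusted p under 0.1 there were 7, 2 higher and 5 lower; 2 were higher among genes above the median level, with an intensity trend and robust prior or without KO pool 3, and 0 without variance moderation or with the T cell covariate. Leaving out 1 pool gave 4 to 5 members, 1 to 2 higher and 3 to 4 lower, 1 to 3 signalling genes (1 without WT pool 3) and 479 to 758 of all genes, where all arrays gave 797; the lowest totals were without KO pool 2 (498) and WT pools 2, 3 and 4 (530, 497 and 479). Signalling genes numbered 5 above the median level, after repeated quantile normalization and at 0.1, 1 over all probe sets and with the T cell covariate, and 0 at an adjusted p under 0.01 and without KO pools 1 and 2. All genes numbered 303 without moderation, 1202 and 311 at 0.1 and 0.01, 295 with the covariate and 320 without KO pools 1 and 2; the cause was not tested. Ltb passed with the trend and robust prior (0.0343) and above the median level (0.0498), Tnfsf8 above the median level (0.0449), and Tnfsf10 without KO pool 3 (0.0491); Tnfrsf13b passed with array weights (0.0416), the trend (0.0462) and above the median level (0.0335).

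Signs turned only for members that were not called. With the T cell covariate these were Cd27 (-0.36), Tnfrsf10b (-0.06), Tnfrsf11b (0.02), Tnfrsf13c (0.02), Tnfrsf14 (0.17), Tnfrsf17 (-0.21), Tnfrsf18 (0.08), Tnfrsf25 (-0.02) and Tnfsf14 (-0.11). Without KO pools 1 and 2 they were Cd27 (-0.22), Eda2r (0.02), Tnfrsf10b (-0.12), Tnfrsf13c (0.03), Tnfrsf14 (0.11), Tnfrsf17 (-0.19), Tnfrsf21 (-0.02) and Tnfsf14 (-0.01). Quantile normalization turned Tnfrsf18 (0.02) and median centring Tnfsf11 (0.02). With 1 pool left out, Cd27 ranged from -0.03 to 0.33, Eda from -0.01 to 0.16, Eda2r from -0.07 to 0.02, Tnfrsf10b from -0.08 to 0.20, Tnfrsf17 from -0.15 to 0.19, Tnfrsf18 from -0.10 to 0.03, Tnfrsf21 from -0.05 to 0.08, Tnfsf11 from -0.10 to 0.09, Tnfsf14 from -0.02 to 0.14 and Tnfsf15 from -0.16 to 0.05.

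The labels do not say that a replicate number marks a shared source. Deviations of same-numbered KO and WT arrays correlated at 0.04 to 0.11 across genes, and 2 of 4 KO arrays correlated best with their own number. The replicate block left 4 members called, the same 4, 2 signalling genes (Tank was lost, adjusted p = 0.0936) and 666 of all genes.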
